A study of Mus musculus with 20 samples.

Results

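Genes of the myelin sheath and of the oligodendrocytes that build it were followed through the brain transcriptome and translatome of mice with severe spinal muscular atrophy (SMA). They are Mbp, Mog, Mag, Mobp, Cnp, Mal, Cldn11, Ugt8a and Sox10, 9 of the 45700 genes in the deposited expression table, taken by gene symbol for their known roles by a rule that uses no measured value. All 9 passed the filter for testing (a mean of at least 1 FPKM over all libraries, which left 15247 genes), and none was listed at 0 FPKM in any library. FPKM is a fragment count scaled to the length of the transcript and to the size of the library, so levels can be set side by side between genes.

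The SMA mice were of the "Taiwanese" line (Smn-/-; SMN2tg/0), which has no intact mouse Smn gene and carries a human SMN2 transgene. Their control littermates were heterozygous for Smn and carried the same transgene (Smn-/+; SMN2tg/0), so the controls are neither wild type nor free of SMN2. All animals were on a congenic FVB background, and the loss of Smn affects every cell type. Brains were collected on postnatal day 5, when symptoms begin (early-symptomatic, 2 replicates of each genotype), and on postnatal day 7, when they are advanced (late-symptomatic, 3 replicates of each genotype). From cytoplasmic lysates run on sucrose gradients, a library of total RNA (all fractions pooled) and a library of polysomal RNA (polysomal fractions pooled) were made for each replicate number, 20 libraries in 8 groups.

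Oligodendrocytes arise from dividing precursor cells, leave the cell cycle and wrap axons in a compacted, lipid-rich membrane. In the mouse brain this begins around birth in the hindbrain and spreads forward over the following weeks, so the first postnatal days lie at its onset. Sox10 is the transcription factor present through the whole lineage, including the precursors. The other 8 genes are switched on or strongly raised as the cells mature: Mbp and Mobp encode basic proteins that hold the membrane layers together, Cnp an enzyme of the cytoplasmic channels of the sheath, Mag and Mog surface glycoproteins, Cldn11 the claudin of myelin tight junctions, Mal a lipid raft protein, and Ugt8a the enzyme that makes galactosylceramide. Several of them, Sox10 included, are also expressed by Schwann cells, the myelinating cells of peripheral nerve. In bulk RNA, fewer cells of a type and less RNA per cell cannot be told apart.

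Smn1, the gene disrupted in the SMA line, was read first as a check of the labels. Its gene-level value in early-symptomatic total RNA was 9.71 and 8.92 FPKM for the controls, against 9.55 and 10.09 FPKM for SMA mice. On day 7 Smn1 was at 13.56, 14.09 and 16.7 FPKM in controls and 11.94, 12.65 and 17.49 FPKM in SMA mice. The genotypes overlapped at both stages (limma, adjusted p = 0.738 and 0.904). The gene-level value does not separate a disrupted transcript from an intact one, and how fragments of human SMN2 were assigned was not tested, so Smn1 checks no genotype label here.

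Libraries of the same group differed widely in the 8 genes other than Sox10, and mostly in step. In 7 of the 8 groups all 9 genes had their lowest value in the same library. That was replicate 1 in the early-symptomatic groups of both genotypes and in the late-symptomatic controls, and replicate 3 in the late-symptomatic SMA mice. In late-symptomatic SMA total RNA 8 of the 9 were lowest in replicate 3, and Sox10 was lowest in replicate 1. The late-symptomatic control replicate 1 stood farthest from its group: the median deviation of the 8 genes from their means over all libraries was -0.94 on the log2 scale in total RNA and -0.72 in polysomal RNA, against 0.41 to 0.66 in the libraries of replicates 2 and 3. Comparisons with this replicate that turned on it are given with and without it.

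Mbp was the most abundant of the 9 genes in every library. In total RNA its level at day 5 was 76.83 and 133.38 FPKM in control replicates 1 and 2, against 54.21 and 136.26 FPKM in SMA replicates 1 and 2. At day 7 it was 68.08, 172.3 and 183.81 FPKM in control replicates 1 to 3 and 214.99, 187.58 and 109.46 FPKM in SMA replicates 1 to 3. Control replicate 1 at day 7 thus lay below both control values of day 5, SMA replicate 3 lay below the higher SMA value of day 5, and the stages overlapped in both genotypes. The polysomal libraries gave the same order within each group except among control replicates 2 and 3 of day 7, with 65.14 and 148.47 FPKM in the controls at day 5, against 77.68 and 153.99 FPKM in the SMA mice. Polysomal Mbp at day 7 was 83.6, 207.79 and 191.03 FPKM in controls and 267.25, 218.21 and 115.35 FPKM in SMA mice. The gene-level value does not separate the classic Mbp transcripts of myelin from the longer Golli transcripts of the same gene, which other cells also make.

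Mobp (GRCm38.p4 chromosome 9, 120149742 to 120181484, plus strand), the other basic protein gene, spread most. Total RNA held 8.07 and 20.07 FPKM for controls at day 5, against 6.69 and 18.76 FPKM for SMA mice. At day 7 the controls had 6.2, 30.4 and 26.98 FPKM and the SMA mice 32.65, 25.05 and 12.4 FPKM. The highest late-symptomatic control library was 4.9 times the lowest, the widest ratio of any gene and group, and the lowest was below every total RNA value of day 5.

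The surface glycoprotein genes were weaker. Mag (chromosome 7, 30899176 to 30914873, minus strand), an adhesion molecule of the inner face of the sheath, had 7.01 and 10.76 FPKM in the total RNA of controls at day 5, against 5.96 and 11.09 FPKM in that of SMA mice. At day 7 it had 5.55, 23.49 and 21.37 FPKM in controls and 19.64, 23.51 and 11.63 FPKM in SMA mice. All 3 SMA values of day 7 lay above both of day 5, whereas the control stages overlapped through replicate 1. Mog (chromosome 17, 37010743 to 37023398, minus strand), found on the outermost myelin layer, ranged from 2.71 to 3.75 FPKM in the 4 early-symptomatic total libraries and from 2 to 6.78 FPKM at day 7, with overlap of the stages in both genotypes.

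Cnp (chromosome 11, 100574904 to 100704271, plus strand) was the most abundant of the 9 after Mbp and varied least over the total libraries. It had 33.65 and 43.03 FPKM in the total RNA of controls at day 5, against 33.72 and 45.3 FPKM in that of SMA mice. On day 7 Cnp had 33.72, 43.67 and 48.7 FPKM in controls and 51.67, 46.4 and 42.42 FPKM in SMA mice, so each stage overlapped the other. The deposited table gives Cnp 1 locus together with 5 other genes, and Mbp and Mog each a locus with 1 other gene, and how fragments were divided within these loci was not tested.

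Cldn11 (chromosome 3, 31149920 to 31164324, plus strand) ranged from 8.67 to 18.46 FPKM in the 4 total libraries of day 5 and from 10.92 to 24.49 FPKM in the 6 of day 7. Ugt8a (chromosome 3, 125865271 to 125938619, minus strand) ranged from 5.14 to 8.06 FPKM at day 5 and from 5.66 to 12.18 FPKM at day 7. Mal (chromosome 2, 127633226 to 127656695, minus strand) was at 1.79 and 4.06 FPKM in the total RNA of controls at day 5, against 1.78 and 6.92 FPKM in that of SMA mice, and at 1.5 to 5.19 FPKM at day 7. The stages of all 3 genes overlapped in controls. Of the 9 genes, Mal alone had its highest value at day 5, in the SMA replicate 2.

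Sox10 (chromosome 15, 79154913 to 79164490, minus strand) was low and even. At day 5 the total libraries had 2.6 and 2.81 FPKM for controls, against 2.57 and 2.89 FPKM for SMA mice, and at day 7 they had 4.14, 4.89 and 4.62 FPKM in controls and 4.45, 4.74 and 4.47 FPKM in SMA mice. Polysomal Sox10 was 2.02 and 2.32 FPKM for controls at day 5, against 1.95 and 2.96 FPKM for SMA mice. On day 7 it was 4.02, 4.52 and 4.29 FPKM in controls and 4.98, 4.82 and 4.32 FPKM in SMA mice. Every day 7 library stood above every day 5 library in both fractions, the late-symptomatic control replicate 1 included.

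**Figure D1:**
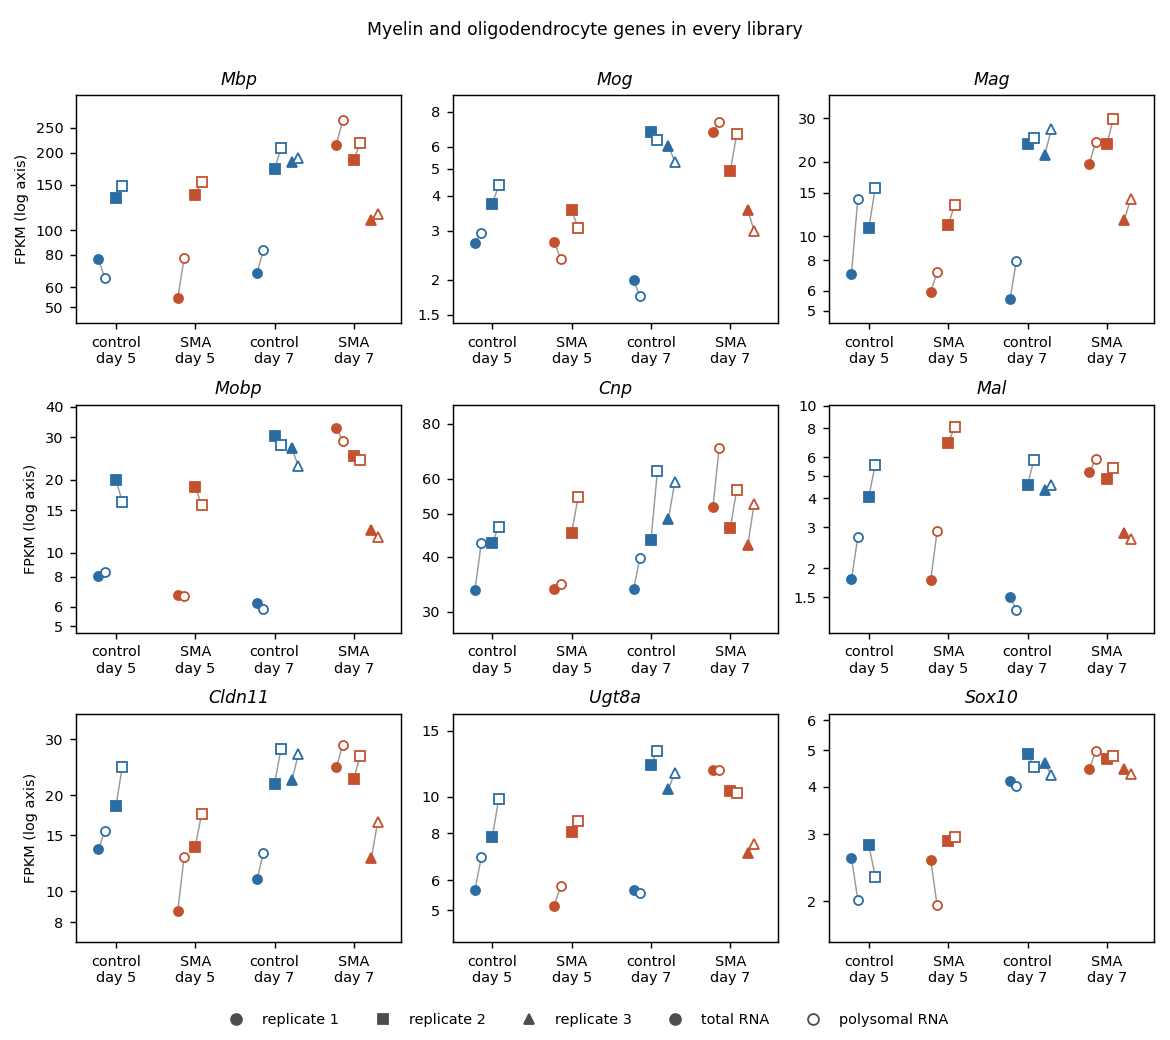
Level of each of the 9 genes in FPKM (log axis) in every library, by genotype and day; symbols give the replicate number, filled for total and open for polysomal RNA, and a line joins the libraries with the same number. Replicate 1 of the late-symptomatic controls lies near the day 5 values for 8 genes, while Sox10 at day 7 is above day 5 in all libraries.

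The shared variation can be given as correlations over the 20 libraries, as a description only, since the points share genotype and stage, and total and polysomal libraries of 1 number deviate together. Pearson's r of log2(FPKM + 0.1) lay between 0.738 and 0.952 for the 21 pairs among the 7 genes other than Mal and Sox10, with a median of 0.889, and was highest for Mobp with Ugt8a. Mal correlated with the 7 at 0.732 to 0.836. Sox10 correlated with the other 8 at only 0.192 to 0.635, lowest with Mal. Outside the 9, the genes most like their mean z-score over the 20 libraries included Elovl7 (r = 0.924), a fatty acid elongase, Vamp1 (0.894), a vesicle fusion protein, and Rnf122 (0.885), a ubiquitin ligase. They were followed by Gjc3 (0.855), a connexin of glia, Plxnb3 (0.851), a semaphorin receptor, Bcas1 (0.844), a marker of newly formed oligodendrocytes, and Fa2h (0.84), which hydroxylates the fatty acids of myelin lipids.

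Because these genes moved together, the promoters of the members were read for 2 kinds of short motif that regulators of the lineage are known to bind: ACAAAG and ACAATG, cores bound by SOX proteins, and CTGGNAC, where N is any base, bound by the oligodendrocyte factor MYRF. The search covered both strands of the 250 bases before each start in the RefSeq promoter table (GRCm38.p6), which matched Cldn11, Cnp, Mag, Mal, Mobp, Mog and Ugt8a. ACAAAG was in the window of 3 of these 7 genes (Cnp, Mag and Mobp), ACAATG in 0, and CTGGNAC in 3 (Cnp, Mag and Mog). Of all 32851 windows of the same length, 16.5% held ACAAAG, 10.7% ACAATG and 16.1% CTGGNAC. Counted by window in the same way, 4 of the 9 windows of these genes held ACAAAG, 0 ACAATG and 4 CTGGNAC, with the overlapping pair of Mag windows counted separately. Mobp had 6 matches to ACAAAG, Cnp 1 and Mag 1, Cnp and Mag each had 2 matches to CTGGNAC and Mog 1, and no match overlapped another. A match describes the letters and is neither a binding site nor a cause. The windows of the 4 genes with a match are printed from 5′ to 3′ on the gene's own strand, with matches on either strand in capitals, and are cut where an annotated exon begins. Mag has 3 windows in the table, 2 of which overlap and hold the same matches, and the longer of these is shown.

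Mobp, chr9:120149492-120149706, plus strand: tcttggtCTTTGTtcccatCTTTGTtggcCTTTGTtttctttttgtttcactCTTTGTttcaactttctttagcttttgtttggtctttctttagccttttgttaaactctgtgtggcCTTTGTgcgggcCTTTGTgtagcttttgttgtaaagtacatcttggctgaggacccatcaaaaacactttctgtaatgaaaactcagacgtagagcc
Mag, chr7:30914923-30915172, minus strand: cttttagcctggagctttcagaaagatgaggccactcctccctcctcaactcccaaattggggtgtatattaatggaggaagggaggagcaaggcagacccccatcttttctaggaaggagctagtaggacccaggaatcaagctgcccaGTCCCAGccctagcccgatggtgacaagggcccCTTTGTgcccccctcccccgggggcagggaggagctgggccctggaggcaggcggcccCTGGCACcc
Cnp, chr11:100574689-100574903, plus strand: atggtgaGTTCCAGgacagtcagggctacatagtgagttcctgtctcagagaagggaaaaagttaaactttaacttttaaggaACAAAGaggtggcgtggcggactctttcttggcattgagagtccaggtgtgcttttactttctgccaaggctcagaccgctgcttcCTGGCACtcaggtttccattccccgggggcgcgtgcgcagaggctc
Mog, chr17:37023399-37023648, minus strand: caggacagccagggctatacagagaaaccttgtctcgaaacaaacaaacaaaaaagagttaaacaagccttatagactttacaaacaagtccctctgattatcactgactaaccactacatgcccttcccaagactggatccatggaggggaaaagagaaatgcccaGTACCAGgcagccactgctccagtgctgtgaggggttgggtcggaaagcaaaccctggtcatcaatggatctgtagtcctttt

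The first comparison asked whether the genes were higher at day 7 than at day 5, as the brain begins to myelinate. Sox10 rose in both genotypes and both fractions, by 0.73 on the log2 scale in control total RNA (SE 0.11, limma, adjusted p = 0.0251) and by 0.95 in control polysomal RNA (SE 0.12, adjusted p = 0.0227). In SMA mice it rose by 0.72 in total RNA (SE 0.11, adjusted p = 0.0474) and by 0.94 in polysomal RNA (SE 0.21, adjusted p = 0.0461). The other 8 genes passed the adjusted threshold of 0.05 in none of the 4 comparisons, and at an unadjusted p under 0.05 Sox10 was again the 1 gene of the 9. In control total RNA 1 of 9 was therefore called higher, against 11.8% of all genes tested, and 1 of 9 at the unadjusted threshold, against 20.1%. The corresponding background was 12.3% and 20.7% in control polysomal RNA, 3.45% and 15.7% in SMA total RNA, and 12.6% and 21.1% in SMA polysomal RNA. Leaving out any 1 replicate kept the sign of the Sox10 difference but mostly ended its call: it was called in 0 of 5 such fits in control total RNA, 1 of 5 in control polysomal, 0 of 5 in SMA total and 1 of 5 in SMA polysomal RNA. With the replicate number as a block, Sox10 was called in none of the 4 comparisons. Its adjusted p (limma) was then 0.101 in control total, 0.114 in control polysomal, 0.327 in SMA total and 0.175 in SMA polysomal RNA. Same-numbered libraries of day 5 and day 7 come from different mice, and whether the number links the stages was not tested. This block also uses up most residual degrees of freedom, so it cannot tell that loss from a less certain Sox10 difference. Stage cannot be told apart from any batch in which the libraries of each day were made.

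The estimates of the 8 genes were large in places but carried large errors. In SMA total RNA the differences ran from 0.22 for Mal to 1.1 for Mag (SE 0.43, 95% interval -0.08 to 2.27, adjusted p = 0.17), with 9 of 9 estimates above 0 and a median of 0.72, where the median of all genes was -0.04. In SMA polysomal RNA 8 of 9 were above 0, with Mag again highest at 1.14 (SE 0.45, adjusted p = 0.137) and a median of 0.79. In control total RNA 9 of 9 were above 0, with a median of 0.42, and in control polysomal RNA 8 of 9, with a median of 0.23. The SMA medians depended on the early-symptomatic replicates: without SMA replicate 1 of day 5 they were 0.27 in total and 0.35 in polysomal RNA, and without SMA replicate 2 of day 5 they were 1.13 and 1.12. Mal was the gene below 0 in polysomal RNA, at -0.13 in SMA mice and -0.24 in controls. The stages did not overlap, with day 7 higher, for Sox10 in the controls (1 of 9 genes against 27.6% of all genes in total and 28.2% in polysomal RNA) and for Sox10 and Mag in SMA mice (2 of 9 against 23.6% and 28.6%). These shares are near or below the background.

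The control estimates depended on single replicates at both stages. Their median in total RNA was -0.05 without replicate 1 and 0.75 without replicate 2 of day 5, and 0.79, 0.13 and 0.11 without replicates 1, 2 and 3 of day 7. In polysomal RNA the same medians were -0.06 and 0.46, then 0.67, -0.02 and 0.06. Without the late-symptomatic replicate 1, the difference between the stages in control total RNA was 1.36 for Mag (SE 0.25), 1.16 for Mobp, 0.98 for Mog, 0.81 for Mbp, 0.79 for Sox10, 0.75 for Ugt8a, 0.7 for Mal, 0.48 for Cldn11 and 0.28 for Cnp. Mog, Mag, Ugt8a and Sox10, 4 of 9, then had an unadjusted p under 0.05 (limma), against 33.2% of all genes in either direction. Of the 9, 0 passed the adjusted threshold, against 1.65% in either direction. With all replicates the unadjusted shares of all genes were 20.1% higher and 20.1% lower, and the called shares 11.8% higher and 9.46% lower. Sox10 itself went to an adjusted p of 0.0623 in total and 0.0754 in polysomal RNA with that replicate left out, while its difference stayed at 0.79 and 0.99. In polysomal RNA without it, the differences ran from 0.39 for Mal to 1.1 for Mobp. Mag, Cnp and Sox10 then had an unadjusted p under 0.05 (limma), against 33.4% of all genes in either direction.

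**Figure D2:**
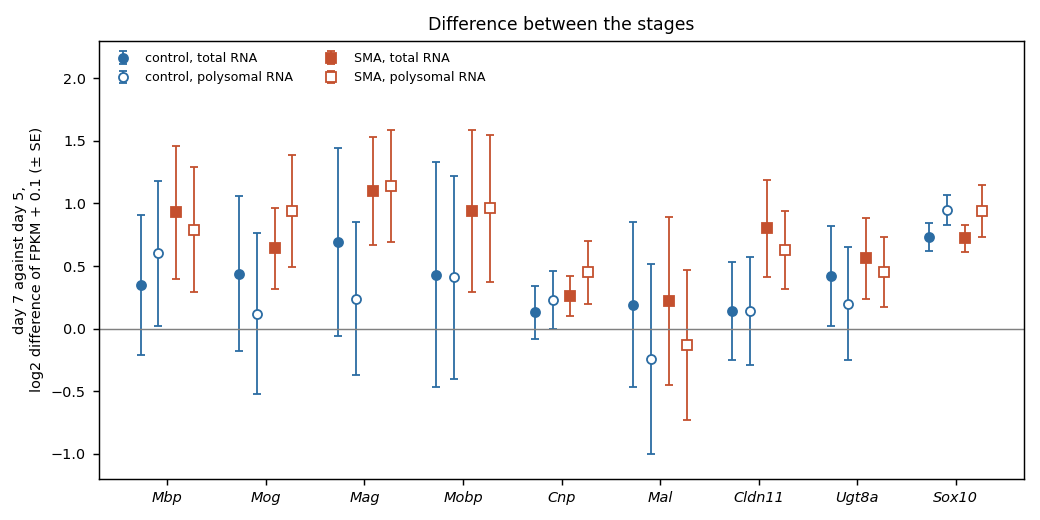
Difference between day 7 and day 5 for each gene, as log2(FPKM + 0.1), with bars for 1 SE, in both genotypes and both fractions. Sox10 has small errors and lies at 0.72 to 0.95, while the errors of the other genes reach 0.9 and those of Mal span 0 in all 4 comparisons.

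Summed levels of genes with a known position along the body axis moved with the low libraries. The genes were picked after the values were seen: Slc6a5, the glycine transporter of hindbrain and spinal neurons, En2 and Barhl1, transcription factors of midbrain, hindbrain and cerebellum, Pcp2, a Purkinje cell gene, and the 39 Hox genes, which are active from the hindbrain backwards. The summed level of the first 4 in total RNA was 4.23, 20.9 and 37 FPKM in late-symptomatic control replicates 1 to 3 and 90.1, 48.5 and 9.12 FPKM in late-symptomatic SMA replicates 1 to 3. Pcp2 was the most abundant of them in every library, at 83.58 of the 90.1 FPKM in SMA replicate 1, and 0 of the 4 were listed at 0 in these libraries. In control replicate 1 at day 7, Slc6a5 was at 0.13 FPKM against 1.67 and 2.91 FPKM in replicates 2 and 3. The summed Hox level in the same order was 0.32, 2.07 and 8.95 FPKM in controls and 2.97, 12.4 and 1.98 FPKM in SMA mice, and 32 of the 39 Hox genes were listed at 0 in control replicate 1. In 8 of 8 groups the library with the lowest myelin gene level had the lowest sum of both kinds. Since the genes were picked after the values were seen, this match describes the libraries and is no test. The 8 groups are not independent, because same-numbered total and polysomal libraries deviate together, and the early-symptomatic groups hold only 2 libraries each. Single genes did not always follow the sums. In early-symptomatic SMA polysomal RNA, En2 was at 2.94 FPKM in the low replicate 1 and at 2.1 FPKM in replicate 2. In early-symptomatic control total RNA it was at 2.51 and 2.53 FPKM. The part of these differences in the myelin gene levels was not tested.

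**Figure D3:**
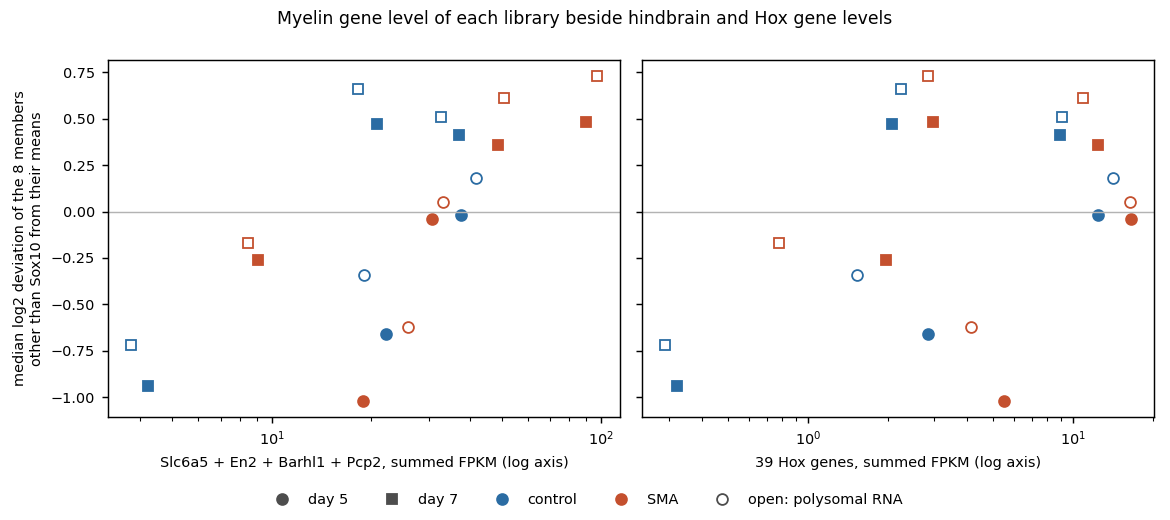
Median log2 deviation of the 8 genes other than Sox10 from their means over the 20 libraries, against the summed FPKM of 4 hindbrain genes (left) and of 39 Hox genes (right), both on log axes, 1 point per library. The late-symptomatic control replicate 1 lies lowest on both horizontal axes, at -0.94 and -0.72 on the vertical axis.

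Genes of Schwann cells and peripheral myelin form a list of 11, of which 6 passed the filter, and Pmp2, a lipid-binding protein of that myelin, was listed at 0 in 8 libraries. Between the stages 0 of the 6 were called in any of the 4 comparisons (limma), where 11.8%, 12.3%, 3.45% and 12.6% of all genes were called higher in control total, control polysomal, SMA total and SMA polysomal RNA and 9.46%, 8.3%, 2.11% and 10% lower. At an unadjusted p under 0.05, 1, 1, 0 and 0 of the 6 were higher, against 20.1%, 20.7%, 15.7% and 21.1% of all genes, and 1, 0, 1 and 0 lower, against 20.1%, 21.4%, 17% and 19.9%. Pmp22, a membrane protein abundant in peripheral myelin, was at 6.29 and 9.67 FPKM in the total RNA of controls at day 5, against 6.15 and 19.29 FPKM in that of SMA mice. Its highest value thus lay in the early-symptomatic SMA replicate 2, the library in which Mal was also highest among the total libraries. The difference of Pmp22 between the stages was 0.52 in control total RNA (SE 0.21, adjusted p = 0.148). The part of peripheral myelin RNA in the levels of Mal and the other shared genes was not tested.

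Further genes of maturing oligodendrocytes form a list of 35. Of these, 28 passed the filter, and 1 of 28 was called higher and 0 lower between the stages in control total RNA, with a median difference of 0.24, where 11.8% of all genes were called higher and 9.46% lower. That gene was Omg, the oligodendrocyte myelin glycoprotein, which neurons also make: it stood at 13.93 and 15.12 FPKM at day 5 and 36.8, 34.68 and 27.09 FPKM at day 7 in controls, with a difference of 1.16 (SE 0.15, adjusted p = 0.0204), and was not low in the late-symptomatic replicate 1. In the control polysomal, SMA total and SMA polysomal libraries 4, 1 and 5 of 28 were called higher and 0 lower, where 12.3%, 3.45% and 12.6% of all genes were called higher and 8.3%, 2.11% and 10% lower. Myrf, the transcription factor that starts myelin gene expression, rose by 1.4 in control polysomal RNA (SE 0.24, adjusted p = 0.0321), but its difference of 0.63 in control total RNA was not called (SE 0.33, adjusted p = 0.227).

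Genes of precursors and of the whole lineage, the stages in which Sox10 is also present, form the next list. Of 17 genes, 4 were called higher in control total RNA, 6 in control polysomal, 1 in SMA total and 5 in SMA polysomal RNA, and 0 lower. The shares of all genes called higher were 11.8%, 12.3%, 3.45% and 12.6% in the same order, and those called lower 9.46%, 8.3%, 2.11% and 10%. Ptprz1, a phosphatase receptor of precursors and astrocytes and the most abundant of them, had 95.14 and 86.93 FPKM at day 5 and 132.61, 136.03 and 127.58 FPKM at day 7 in control total RNA, a rise of 0.54 (SE 0.06, adjusted p = 0.0145). Olig2, the lineage partner of Sox10, differed by 0.19 in control total RNA (SE 0.12, adjusted p = 0.303) and rose by 0.48 in SMA polysomal RNA (SE 0.06, adjusted p = 0.0213). Pdgfra, the growth factor receptor of precursors, lay between 21.79 and 31.23 FPKM in total RNA over both stages, and Cacng4, a receptor subunit, differed by -0.21 in control total RNA (SE 0.09, adjusted p = 0.177).

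The labelled tissue, brain, was checked against neuron markers: Stmn2, a neuronal growth protein, was at 425.81 to 1632.77 FPKM in total RNA, and of the 12 neuron markers Tubb3 alone was listed at 0, in the 2 early-symptomatic control polysomal libraries. Between the stages in control total RNA, 7 of 12 neuron markers were called higher and 0 lower, 3 of 12 astrocyte markers higher and 1 lower, 3 of 10 microglia markers higher and 1 lower, 1 of 12 leptomeningeal markers higher and 0 lower, and 1 of 11 endothelial and pericyte markers higher and 0 lower, where 11.8% of all genes were called higher and 9.46% lower. Slc17a7, a vesicular glutamate transporter, went from 37.22 and 37.76 FPKM to 112.52, 97.57 and 74.18 FPKM, highest in the replicate in which the myelin genes were lowest. None of these 5 lists had its lowest sum in the library lowest for myelin genes in more than 6 of 8 groups. The lists of maturing oligodendrocytes and of Schwann cells and peripheral myelin had it there in 8 of 8, and that of precursors in 6 of 8.

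The second comparison was between SMA and control mice. Of the 9 genes 0 were called in any stage or fraction. In early-symptomatic mice this stood against 0.164% of all genes in total and 0.649% in polysomal RNA, and in late-symptomatic mice against 0.111% and 0.0918%. At an unadjusted p under 0.05 (limma) the members also gave 0 of 9 in each of the 4, where 8.25%, 12.5%, 9.54% and 10.7% of all genes passed. Sox10 was the most closely bounded: its late-symptomatic difference in total RNA was 0 on the log2 scale, with a 95% interval of -0.23 to 0.23. The intervals of the others were wide, -0.89 to 1.58 for Mbp, -1.55 to 2.21 for Mobp and -1.33 to 1.95 for Mag in the same libraries, so changes of more than 2-fold in either direction lie within those of Mobp and Mag.

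At day 7, 9 of 9 estimates were at or above 0 with all replicates, with a median of 0.17 in total and 0.3 in polysomal RNA. Without control replicate 1 the differences in total RNA were -0.12 for Mbp, -0.38 for Mog, -0.35 for Mag, -0.4 for Mobp, -0.1 for Mal, -0.2 for Cldn11, -0.24 for Ugt8a, -0.06 for Sox10 and 0.02 for Cnp. In polysomal RNA 8 of 9 were likewise below 0 without it, from -0.03 for Cnp to -0.36 for Ugt8a, and Sox10 was at 0.09. The direction of most late-symptomatic estimates thus turned on 1 control replicate, and 0 of 9 were called with or without it in either fraction. Other single replicates moved the medians without turning them: in total and polysomal RNA they were 0.03 and 0.09 without SMA replicate 1, 0.48 and 0.55 without control replicate 2, 0.4 and 0.52 without control replicate 3, and 0.43 and 0.6 without SMA replicate 3. With the lowest replicate of each genotype left out, control 1 and SMA 3, an exclusion chosen after the values were seen, the estimates in total RNA ran from -0.15 for Mog to 0.17 for Mbp and Mal, with a median of 0, and 0 of 9 were called. In polysomal RNA they then ran from -0.17 for Ugt8a to 0.28 for Mbp, with a median of 0.07, and again 0 of 9 were called. In the early-symptomatic mice 6 of 9 estimates were below 0 in each fraction, with a median of -0.05 in total and -0.18 in polysomal RNA. That direction also turned on single libraries: the medians were 0.27 and 0.28 without SMA replicate 1, 0.2 and 0.03 without control replicate 2, -0.28 and -0.48 without control replicate 1, and -0.54 and -0.51 without SMA replicate 2. Mag in early-symptomatic polysomal RNA was the 1 case in which the genotypes did not overlap, with 14.11 and 15.69 FPKM for controls, against 7.13 and 13.34 FPKM for SMA mice (difference -0.6, SE 0.36, adjusted p = 0.491), and 26.6% of all genes were lower in SMA without overlap in that comparison. Early-symptomatic Cldn11 in total RNA had 13.53 and 18.46 FPKM for controls, against 8.67 and 13.81 FPKM for SMA mice, which overlapped (difference -0.53, SE 0.32, adjusted p = 0.567).

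Whether the change between the stages itself differed between SMA and control mice was tested as an interaction. In total RNA 0 of 9 genes were called, against 0.125% of all genes, and 0 of 9 had an unadjusted p under 0.05 (limma), against 10.1%. In polysomal RNA the members again gave 0 and 0 of 9, against 0.597% and 13.7%. For Sox10 the difference of the changes was -0.01 in total RNA (95% interval -0.33 to 0.32) and -0.01 in polysomal RNA (-0.58 to 0.55). For Mobp it was 0.51 in total RNA, with an interval of -2.25 to 3.27. With all replicates 8 of 9 estimates were above 0 in each fraction. Without control replicate 1 of day 7, 7 of 9 were below 0 in total RNA, from -0.47 for Mal to 0.32 for Cldn11 with Mobp at -0.22, and 5 of 9 in polysomal RNA, from -0.53 for Mal to 0.34 for Mag, and 0 of 9 were called. Leaving out 1 replicate at a time, the median over the 9 genes ran from -0.19 without that replicate to 0.85 without SMA replicate 2 of day 5 in total RNA, and from -0.06 without SMA replicate 1 to 0.78 without control replicate 1 of day 5 in polysomal RNA.

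The last comparison was between the polysomal and total libraries, whose ratio is a measure of translation efficiency (TE). It is relative to the other transcripts of each library, so 1 is no absolute mark. The ratio varied less from pair to pair than the levels did from library to library. Over the 10 pairs of libraries with the same number, the SD of log2 TE ran from 0.11 for Mobp and Cldn11 to 0.27 for Mal, where the SD of the log2 total level ran from 0.23 for Cnp to 0.91 for Mobp. Cldn11 had a ratio above 1 in 10 of 10 pairs (1.14 to 1.48, median 1.23), as did Cnp (1.03 to 1.43, median 1.21) and Mag (1.06 to 2.01, median 1.24). Mbp was above 1 in 9 of 10 (median 1.14) and Mobp below 1 in 9 of 10 (0.811 to 1.03, median 0.925). The medians of the basic protein genes thus lay on opposite sides of 1. Mbp and Mobp mRNAs are both known to be carried into the processes of oligodendrocytes and translated there. How many of all genes lay above 1 in 10 of 10 pairs was not counted. In late-symptomatic controls the median log2 difference between the fractions was 0.08 for the 9 genes and 0.05 for all genes. It was 0.26 for astrocyte markers and 0.22 for endothelial and pericyte markers.

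**Figure D4:**
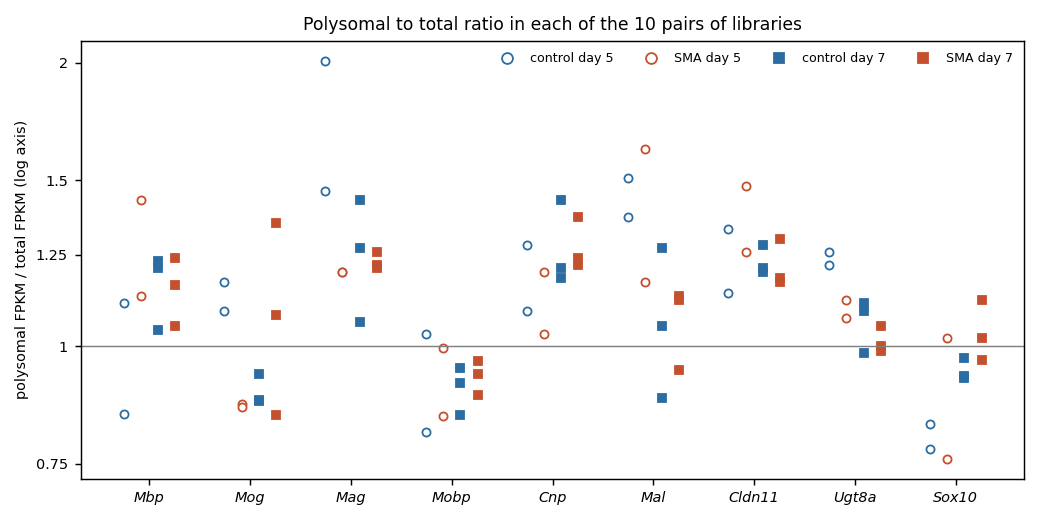
Ratio of polysomal to total FPKM (log axis) for each gene in each of the 10 pairs of libraries with the same replicate number, by genotype and day. Cldn11, Cnp and Mag are above 1 in all 10 pairs and Mobp is below 1 in 9.

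Tested without regard to the pairs, 0 of 9 genes differed between polysomal and total RNA in early-symptomatic controls (1.32% of all genes called, 25.9% at an unadjusted p under 0.05), early-symptomatic SMA mice (0.334% and 12.6%), late-symptomatic controls (7.12% and 25.3%) or late-symptomatic SMA mice (11% and 29.6%). At the unadjusted threshold (limma) the members gave 0, 0, 0 and 1 of 9. In early-symptomatic controls Mag was higher in polysomal RNA without overlap (difference 0.77, SE 0.26, adjusted p = 0.193), as were 33.9% of all genes, and Sox10 lower without overlap (-0.31, SE 0.13, adjusted p = 0.247), as were 28.1% of all genes. The gene past the unadjusted threshold was Cnp in late-symptomatic SMA mice, with 51.67, 46.4 and 42.42 FPKM in total and 70.57, 56.69 and 52.62 FPKM in polysomal RNA, the groups not overlapping (21.1% of all genes were higher without overlap). With the replicate number as a block, Cnp (difference 0.35, adjusted p = 0.0418) and Mag (0.3, adjusted p = 0.0342) were called higher in polysomal RNA of late-symptomatic SMA mice, 2 of 9 against 7.21% of all genes. In late-symptomatic controls the blocked test called 0 of 9, against 0.617% of all genes called higher, with Cldn11 nearest (difference 0.3, adjusted p = 0.0622), and in late-symptomatic SMA mice Cldn11 was at an adjusted p of 0.051. The median difference of the 9 genes without the block was 0.08 in late-symptomatic controls and 0.16 without their replicate 1, when Cnp and Cldn11, 2 of 9, had an unadjusted p under 0.05 (limma, 0.0112 and 0.00596), against 18.4% of all genes, and 0 were called. In late-symptomatic SMA mice it was 0.1, with 0.06 without replicate 2 and 0.24 without replicate 3.

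A change in TE between SMA and control mice was called for 0 of 9 genes at either stage, against 0.617% of all genes in early- and 0.0394% in late-symptomatic mice, and 0 of 9 had an unadjusted p under 0.05 (limma), against 2.32% and 2.07%. The block changed neither count. With the block, the late-symptomatic change in TE on the log2 scale was 0.01 for Cnp (95% interval -0.23 to 0.24), -0.02 for Cldn11 (-0.16 to 0.13) and 0.13 for Sox10 (-0.08 to 0.34). Mog had the widest interval at that stage, -0.2 to 0.72 around 0.26.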

How the data were processed

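The authors deposited 1 FPKM value per gene and library, computed with Cufflinks 2.2.1 after TopHat2 2.0.14 alignment to GRCm38.p4 with the Gencode M6 annotation, from stranded total RNA libraries. Only these FPKM were used. They hold no counts, so the depth behind a value is unknown and no detection floor can be given; library medians over tested genes were 10.3 to 11.4 FPKM.

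Values were analysed as log2(FPKM + 0.1) with R 4.3.3 and limma 3.58.1 (lmFit, eBayes with a trend), fitted to the libraries of each comparison over the 15247 genes whose mean reached 1 FPKM. p-values were adjusted over all tested genes (Benjamini-Hochberg), and a gene was called at an adjusted p under 0.05. CuffDiff and Xtail, which the study used, need reads or counts. Fold changes on this scale understate those of weakly expressed genes. Without a block, p-values measure the spread between the libraries of 1 group. Comparisons of the fractions without the block treat same-numbered libraries as independent. With the block, p-values measure the spread left once the level of each replicate number is taken out. The fit was tested on simulated data.

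The members, lists and named genes were chosen with earlier results of these data known. Named were the members, Myrf, Olig2 and Pdgfra, the genes most like the members and, of each list, genes among the most abundant and among those called in control total RNA with the largest change. Some genes that this rule takes are not reported here. The hindbrain and Hox genes and the exclusion of both low day 7 replicates were chosen after the data were seen. Further alternatives were other pseudocounts, filters and scalings, a fit without the trend, 1 model over all libraries, leaving out each replicate, and a correction for transcript length.

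Same-numbered total and polysomal libraries deviated together from their group means in 10 of 10 pairs, with r = 0.102 to 0.559. This was over 9722 protein-coding genes whose mean reached 5 FPKM and which were above 0 in every library. Over all tested genes r was -0.0391 to 0.109. Early-symptomatic groups have 2 replicates, so both pairs of a group give the same r by construction (0.135 in controls, 0.102 in SMA mice). The number therefore served as a block between fractions, a choice that rests on the well-expressed genes; whether such libraries come from the same brain is not given in the sources used here. Between control and SMA libraries r was -0.222 to 0.227, and the numbers were not taken as pairs.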

Additional observations from a re-analysis of the deposited data

How the results depend on the processing

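The number of the 9 genes called between day 7 and day 5 was 1 in each genotype and fraction. It was 0 in all 4 comparisons with the filter at a mean of 5 FPKM, under which Sox10 is not tested, and 0 in all 4 with the replicate number as a block. Between the stages this block joins different mice and leaves few degrees of freedom. The block together with a length correction gave 0 in control total, SMA total and SMA polysomal RNA, the filter at a mean of 0.1 FPKM gave 0 in SMA total and SMA polysomal RNA, and no filter gave 0 in SMA polysomal RNA; the cause was not tested. Leaving out 1 replicate at a time gave 0 to 0 called in control total and SMA total RNA and 0 to 1 in both polysomal comparisons, and 0 to 0 in the others. Over all these alternatives the Sox10 difference ran from 0.58 to 0.82 in control total, 0.74 to 1.04 in control polysomal, 0.58 to 0.86 in SMA total and 0.65 to 1.23 in SMA polysomal RNA, with adjusted p (limma) between 0.000121 and 0.327. Between polysomal and total RNA of late-symptomatic SMA mice, 2 genes instead of 0 were called with the replicate block, and 2 with the block and the length correction; the block changed no other count of calls between fractions. Of 2553 alternative values for single genes, 2508 kept their side of the threshold or moved by less than the spread of replicates, 28 lost and 4 gained a call and 13 moved by more. Where an arm was left with 1 library, it was assumed to vary like the other group; leaving out a replicate was not possible between fractions of early-symptomatic mice. The files hold no counts, so what depth limits could not be assessed.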
